A study of Mus musculus with 10 samples.

Results

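Intermediate lobes of 7-month-old mice lacking p27 were compared with intermediate lobes of wild-type (WT) mice of the same age. The 5 libraries of this comparison, 2 WT and 3 p27-/-, were taken from the 10 libraries of the series by the genotype and age in their labels, and the 16556 of 39021 gene IDs (42.4%) whose normalised value, back-transformed from log2, averaged 10 or more across the series were tested. The p27-/- mice carried the *Cdkn1b* tm1Mf null allele in all cells from conception, the strain was a mixed background, controls were littermates or mice of comparable background, and the labels name no treatment. RNA was extracted from dissected lobes of males and females, amplified into cDNA and sequenced, and the study describes 7-month p27-/- lobes as hyperplastic. The other 5 libraries, 3 WT and 2 p27-/-, came from lobes of 2 months and entered the fit through the shared estimate of spread. The study calls the libraries of a group biological replicates, and its animal record lists as many mice as libraries, without tying mice to libraries. The study's figure legend for 7 months gives more p27-/- samples than the 3 libraries compared here.

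The intermediate lobe is made mostly of melanotrophs, endocrine cells that cleave the precursor POMC into melanocyte-stimulating hormone, beside a thin layer of SOX2- and SOX9-positive stem cells. p27, the product of *Cdkn1b*, binds complexes of cyclins with cyclin-dependent kinases (CDKs) and restrains entry into S phase. Mice without it are known for pituitary tumors that arise in this lobe. In RNA of a whole lobe, fewer cells of a type and less RNA per cell cannot be told apart.

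*Cdkn1b* (ENSMUSG00000003031, GRCm38 chromosome 6, 134920401 to 134925525) was examined first. Its level, in log2 normalised expression as deposited, was 8.57 and 8.75 in the WT libraries and 8.43, 8.34 and 8.21 in the p27-/- libraries. The p27-/- libraries all lay below the WT libraries, by less than 1 log2 unit, and the difference did not pass the test as deposited (log2 fold change -0.33, SE 0.16, limma adjusted p = 0.156). It passed after a correction of the libraries on GC content (-0.62, limma adjusted p = 0.0257) and after rescaling without mitochondrially encoded genes (-0.51, adjusted p = 0.0301). The table holds 1 value per gene, not per exon, so it does not show whether the remaining signal came from sequence outside the deleted part, and p27-/- and WT below stand for the libraries so labeled.

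At 7 months, 3037 genes were called, 18.3% of those tested (limma, Benjamini-Hochberg adjusted p under 0.05). Of these, 1501 (9.07%) were higher in p27-/- and 1536 (9.28%) were lower. Counts for the gene lists below are to be read beside these shares over all genes. Among the called genes, 393 rose and 302 fell by more than 1 log2 unit. Groups that did not overlap were far more common than calls, 23.0% of all tested genes with p27-/- higher and 24.9% with p27-/- lower. The count fell to 142 without WT replicate 1 and to 1865 without p27-/- replicate 2. Of the 227 genes called over the pathway lists described below (728 tested), 25 were also called without WT replicate 1. Over all tested genes the median log2 fold change was -0.0035. With each library rescaled to an equal total without mitochondrially encoded genes that median moved to -0.19, and the split became 843 higher and 2927 lower.

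**Figure D1:**
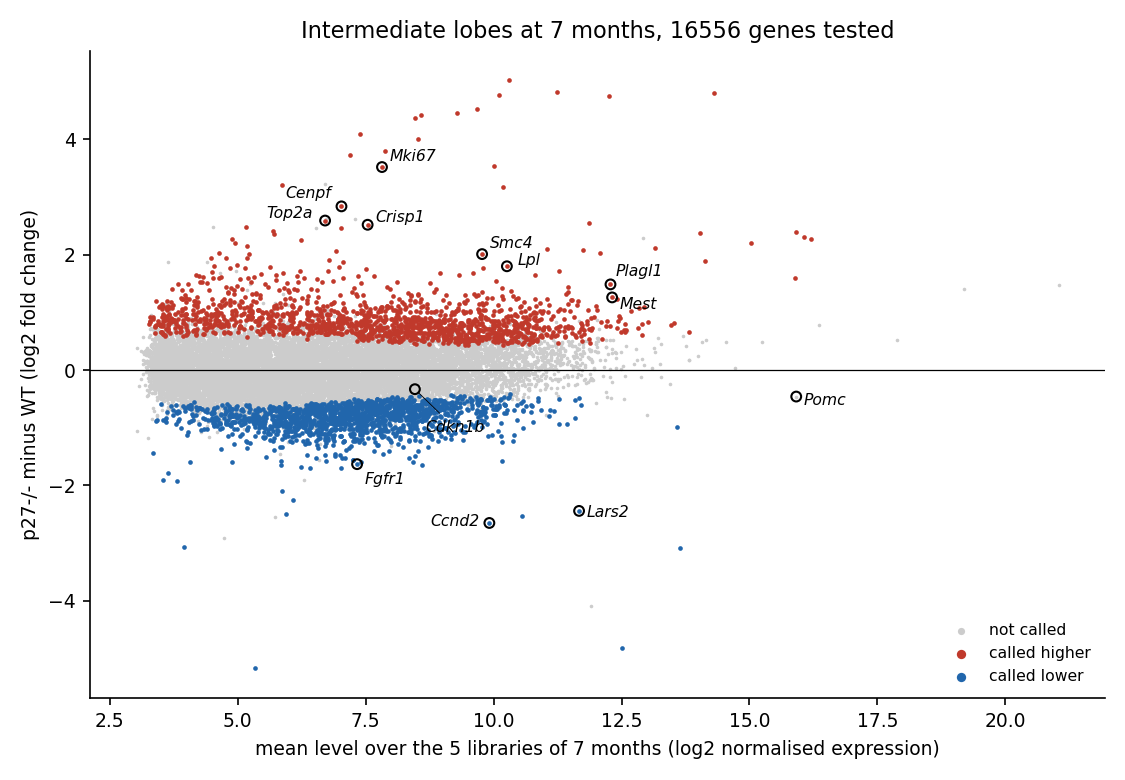
Difference between p27-/- and WT lobes of 7 months for the 16556 tested genes (y axis, log2 fold change) against their mean level over the 5 libraries (x axis, log2 normalised expression), with called genes in color and circles on named genes. *Mki67* sits at 3.52 and *Ccnd2* at -2.65, while *Cdkn1b* (-0.33) and *Pomc* (-0.46) lie among the genes that were not called.

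Several properties of the libraries moved with genotype. Genes called higher had a median GC content of 42.7%, genes called lower 55.3%, and all tested genes 49.2%. In the lowest GC decile 482 of 1418 genes were called higher and 4 lower, and in the highest decile 14 of 1418 were called higher and 438 lower. Mitochondrially encoded RNA made up 19.3% and 28.0% of the normalised total in WT and 38.7%, 48.0% and 45.2% in p27-/-. *Xist* exceeded *Ddx3y*, which is Y-linked, in the WT pair and in p27-/- replicate 3 only, although the study's record lists both sexes in each group. The part of these properties in the results was not tested. After a correction of each library on GC content, which 14172 of the tested genes had, 1061 genes (7.49%) were called, 606 higher (4.28%) and 455 lower (3.21%). Of the genes called as deposited, 464 higher and 363 lower were also called after it, and corrected values stand below beside the gene groups.

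**Figure D2:**
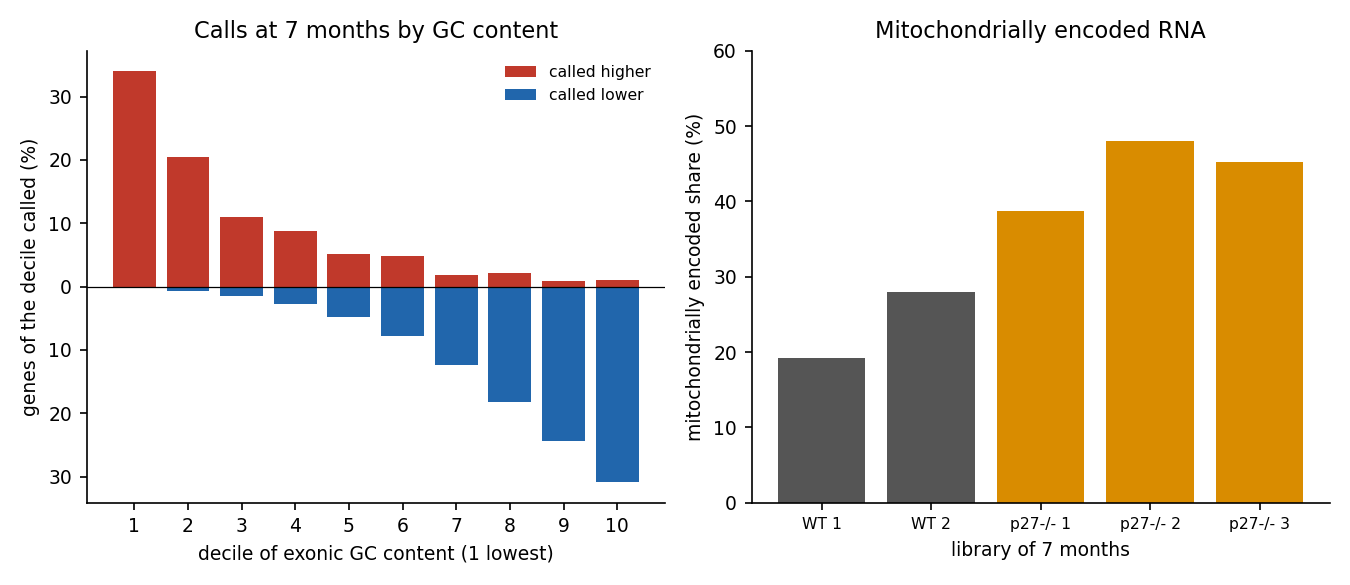
Left, share of genes called higher (upward bars) and lower (downward bars) in p27-/- lobes in each decile of exonic GC content (about 1417 genes each), with 482 higher calls in decile 1 and 438 lower calls in decile 10. Right, share of the normalised total taken by mitochondrially encoded RNA in each library, 19.3% and 28.0% in WT against 38.7% to 48.0% in p27-/-.

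Genes of chromosome segregation rose together. Of 26 tested genes of the kinetochore, spindle and cytokinesis, 20 were called higher and 0 lower, with a median log2 fold change of 1.06. Their median GC content was 43.7%, and after the GC correction the median was 0.82 and 12 of the 20 were still called. Without WT replicate 1 the median was 1.01 and 6 were called. *Cenpf*, which encodes a kinetochore protein of G2 and mitosis (chromosome 1, 189640606 to 189688107), stood at 5.31 and 5.34 in the WT libraries and 7.71, 8.73 and 8.04 in the p27-/- libraries. Its lowest p27-/- value was more than 2 log2 units above its highest WT value (log2 fold change 2.84, SE 0.26, limma adjusted p = 9e-05). *Cenpe*, the kinetochore motor that holds chromosomes to microtubule plus ends, had 5.73 and 5.62 in the WT libraries and 7.45, 8.49 and 7.26 in the p27-/- libraries, again without overlap (log2 fold change 2.06, SE 0.30, limma adjusted p = 0.00137). *Hmmr* and *Ckap2l*, both of the spindle, rose 4.03- and 4.08-fold (limma adjusted p = 0.00111 and 0.00123). *Aspm*, which acts at spindle poles, and *Knl1*, the scaffold of the outer kinetochore, rose 3.3- and 3.41-fold (adjusted p = 0.00112 and 0.00165). The motor genes *Kif11* and *Kif18a* rose 2.27- and 2.02-fold, and neither was called after the GC correction (adjusted p = 0.0681 and 0.422).

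Among 16 genes of chromosome condensation and cohesion, 11 were called higher and 0 lower (median 0.99, median GC content 41.7%). After the correction the median was 0.64 and 8 of the 11 were still called, and without WT replicate 1 it was 0.88 with 5 called. *Top2a*, the topoisomerase that untangles sister chromatids (chromosome 11, 98992947 to 99024199), measured 5.09 and 5.21 in the WT libraries and 7.10, 8.49 and 7.64 in the p27-/- libraries. All 3 p27-/- libraries were far above WT, with replicate 2 the highest (log2 fold change 2.59, SE 0.32, limma adjusted p = 0.000511). *Smc4*, a condensin subunit, measured 8.16 and 8.97 in the WT libraries and 10.44, 10.75 and 10.54 in the p27-/- libraries (log2 fold change 2.01, SE 0.21, limma adjusted p = 0.000224). The cohesin genes *Smc3* and *Smc1a* rose 2.09- and 1.85-fold (limma adjusted p = 0.00145 and 0.00182). *Sgo2a* and *Sgo1*, the shugoshins that protect centromeric cohesion, rose 3.0- and 2.32-fold (adjusted p = 0.00207 and 0.00424).

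Of 20 mitotic regulators, 7 were called higher and 0 lower, and the median was 0.45 (0.51 after the GC correction, with 4 of the 7 still called). Without WT replicate 1 their median was 0.37. *Mki67*, the gene of the proliferation antigen Ki-67 (chromosome 7, 135689784 to 135716450), showed the largest of the 15 rises named by size. It was 5.66 and 5.75 in the WT libraries and 8.89, 9.85 and 8.95 in the p27-/- libraries, a gap of more than 3 log2 units between the groups (log2 fold change 3.52, SE 0.26, limma adjusted p = 1.59e-05). *Ccnb1*, which encodes the mitotic cyclin B1, was 3.04 and 2.95 in the WT libraries and 3.94, 4.38 and 3.83 in the p27-/- libraries. Its p27-/- values were all higher (log2 fold change 1.05, SE 0.27, limma adjusted p = 0.0177), but the GC-corrected difference did not pass (0.75, adjusted p = 0.0913). *Ccnb1* lay near the minimum level for testing, and its WT values, back-transformed, were under the 10 required of the mean. *Aurkb*, a kinase of the chromosomal passenger complex, *Bub1*, of the spindle checkpoint, and *Ube2c*, of the anaphase-promoting complex, rose 1.91-, 2.1- and 1.72-fold (adjusted p = 0.0118, 0.00717 and 0.0154). *Ccna2*, cyclin A2, did not pass, with a log2 fold change of 0.90 (adjusted p = 0.0523), and 9 further members, *Cdk1* among them, were below the minimum level.

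The promoters of the 4 genes with the largest rises that belong to these lists and have a reference entry are shown because E2F, CCAAT and CHR elements in such promoters are known to time transcription to S phase and mitosis. Each run is the 200 bases before the start used by the RefSeq promoter windows in GRCm38.p6 (5′ to 3′ on the gene's strand). That start was the first base of the RefSeq gene for *Cenpe* and lay 71, 21 and 10 bases inside the gene for *Mki67*, *Cenpf* and *Top2a*. The capitals mark the CHR letters TTTGAA, the CCAAT box CCAAT and the E2F letters TTTCCCGC, TTTCGCGC, TTTGCCGC and TTTGGCGC on either strand.
Mki67, chr7:135716380-135716579, minus strand: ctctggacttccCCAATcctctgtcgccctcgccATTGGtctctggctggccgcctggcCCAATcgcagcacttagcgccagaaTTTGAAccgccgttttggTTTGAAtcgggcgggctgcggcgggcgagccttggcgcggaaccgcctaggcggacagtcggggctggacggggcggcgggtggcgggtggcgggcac
Cenpf, chr1:189688087-189688286, minus strand: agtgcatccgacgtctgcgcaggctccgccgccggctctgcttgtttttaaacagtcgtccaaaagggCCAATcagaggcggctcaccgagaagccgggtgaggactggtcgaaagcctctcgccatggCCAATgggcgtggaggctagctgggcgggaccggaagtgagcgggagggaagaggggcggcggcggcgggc
Top2a, chr11:99024190-99024389, minus strand: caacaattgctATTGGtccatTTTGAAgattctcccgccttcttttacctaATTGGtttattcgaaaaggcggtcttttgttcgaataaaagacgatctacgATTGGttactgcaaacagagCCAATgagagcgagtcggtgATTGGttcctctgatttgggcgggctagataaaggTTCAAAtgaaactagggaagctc
Cenpe, chr3:135212363-135212562, plus strand: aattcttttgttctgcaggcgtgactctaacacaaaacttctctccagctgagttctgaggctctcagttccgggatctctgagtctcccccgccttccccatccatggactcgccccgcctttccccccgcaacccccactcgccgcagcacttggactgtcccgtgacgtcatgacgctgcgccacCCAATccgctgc
CCAAT letters were found in all 4 windows, CHR letters in those of *Mki67* and *Top2a*, and the E2F letters in none. In windows of 250 bases before to 50 after the start, a gene counted as a match if any of its windows held the letters. CHR letters were held by 20.2% of all 27025 genes with a window and by 14.7% of the tested genes among them. They were held by 38.5% of the 104 cell cycle genes with a window, 24 of 48 of those called higher and 16 of 56 of the others. CCAAT letters were held by 41.1% of all genes with a window and by 61.5% of the cell cycle genes with a window. E2F letters were in 2.60% and 27.9%, and among the cell cycle genes in 10 of 48 called higher and 19 of 56 others. A match in letters is a description of the window and not a bound site.

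Of 29 replication genes, 7 were called higher and 0 lower (median 0.29, and 0.35 after the GC correction, with 2 of the 7 still called). Without WT replicate 1 their median was 0.22. *Pcna*, the sliding clamp of the replication fork, was 6.84 and 7.14 in the WT libraries and 7.60, 7.78 and 8.17 in the p27-/- libraries, with the groups apart (log2 fold change 0.86, SE 0.23, limma adjusted p = 0.0192). *Mcm4* of the replicative helicase and *Rrm1* of ribonucleotide reductase rose 1.58- and 1.59-fold (adjusted p = 0.0197 and 0.0157). *Gins2* rose 1.85-fold (adjusted p = 0.0434), but 1 WT library decided the size of its difference, since WT replicate 1 was at 6.74 and replicate 2 at 8.18, and without replicate 1 the log2 fold change was 0.17. Of 19 genes of the DNA damage response, 8 were called higher and 0 lower (median 0.56, and 0.39 after the GC correction, with 5 still called). Without WT replicate 1 their median was 0.49. *Brca2*, of homologous recombination, rose 2.06-fold, the checkpoint kinase gene *Chek1* 1.88-fold and *Clspn*, its adaptor, 2.07-fold (limma adjusted p = 0.00554, 0.0137 and 0.00585).

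The D-type cyclins, which act in the G1 phase with CDK4 and CDK6, went the other way, and all 3 were called lower. *Ccnd2* (chromosome 6, 127125162 to 127152188) was 11.47 and 11.54 in the WT libraries and 8.88, 9.23 and 8.46 in the p27-/- libraries. It fell 6.29-fold, with no library of either group near the other (log2 fold change -2.65, SE 0.21, limma adjusted p = 1.86e-05), and the value after the GC correction was nearly equal (-2.63). *Ccnd1* was 9.02 and 8.40 in the WT libraries and 7.43, 8.02 and 7.05 in the p27-/- libraries (log2 fold change -1.21, SE 0.28, limma adjusted p = 0.0106). *Ccnd3* was 7.11 and 6.92 in the WT libraries and 6.13, 5.93 and 6.37 in the p27-/- libraries (log2 fold change -0.87, SE 0.22, limma adjusted p = 0.0154), and the GC-corrected difference did not pass (-0.40, adjusted p = 0.254). Without WT replicate 1 only *Ccnd2* kept its call (adjusted p = 0.00156). At 2 months *Ccnd2* and *Ccnd1* were called lower as well (log2 fold changes -3.06 and -2.47, limma adjusted p = 5.36e-06 and 0.00148), and *Ccnd3* was not (-0.42, adjusted p = 0.501). The genotype by age interaction passed for none of the 3 (limma adjusted p = 0.514, 0.153 and 0.483), although *Ccnd1* had an unadjusted p of 0.00595.

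Among 21 genes of the G1/S transition, 6 were called higher and 2 lower (median 0.16, which turned to -0.020 under the rescaling and was 0.064 after the GC correction, with 4 of the rises and 1 fall still called). Without WT replicate 1 their median was 0.14. *Ccne2*, cyclin E2, was 5.21 and 5.46 in the WT libraries and 6.50, 6.86 and 6.79 in the p27-/- libraries, without overlap (log2 fold change 1.38, SE 0.22, limma adjusted p = 0.00204). *E2f7* and *E2f8*, the repressor E2Fs, rose 1.97- and 1.91-fold (limma adjusted p = 0.00642 and 0.00473), and *E2f1* did not pass as deposited, at 0.75 (adjusted p = 0.0539), but passed after the GC correction (1.203, adjusted p = 0.0121). *Cdk4*, the partner of the D cyclins, fell, from 9.19 and 9.17 in WT to between 8.26 and 8.66 in p27-/- (log2 fold change -0.76, SE 0.16, limma adjusted p = 0.00661). *Rb1*, the retinoblastoma gene, was among the 6 that rose (log2 fold change 0.52, SE 0.15, limma adjusted p = 0.0292), and it was at 0.08 after the GC correction. Of the 4 CDK inhibitor genes tested, *Cdkn1b* among them, *Cdkn2c*, which encodes the CDK4/6 inhibitor p18, was the 1 called. It was 4.45 and 4.59 in the WT libraries and 5.32, 5.30 and 5.87 in the p27-/- libraries (log2 fold change 0.98, SE 0.23, limma adjusted p = 0.0115). *Cdkn1a* (p21) and *Cdkn1c* (p57) had log2 fold changes of 0.31 and -0.04 (adjusted p = 0.493 and 0.944).

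**Figure D3:**
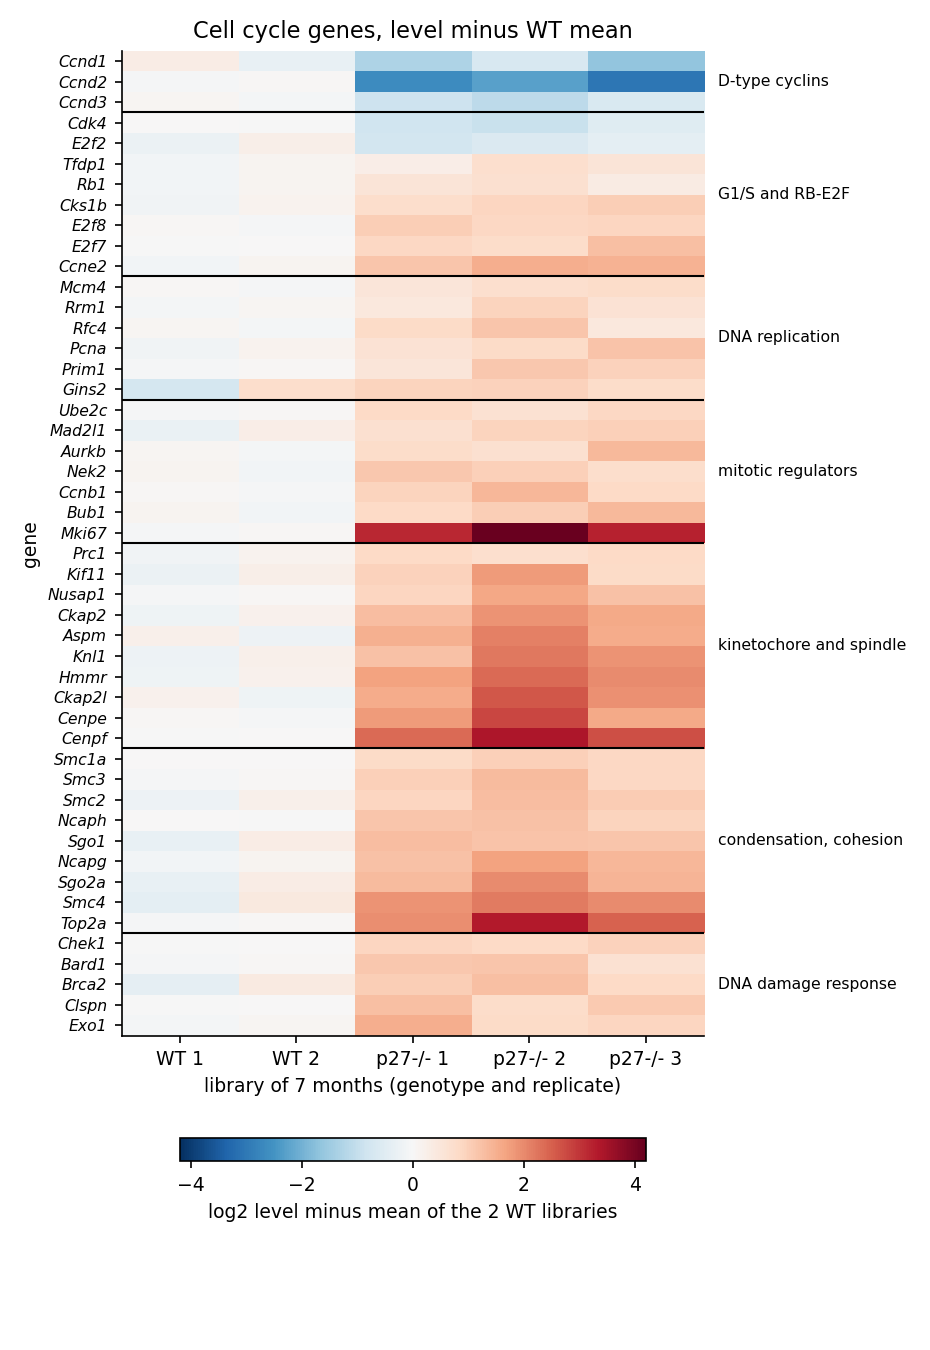
Level of each called cell cycle gene in each of the 5 libraries minus the mean of the 2 WT libraries (color, log2 units), for all called members of the D-type cyclin, G1/S and mitotic lists and for 6 of 7 in the replication, 10 of 20 in the kinetochore, 9 of 11 in the condensation and 5 of 8 in the damage list. The 3 D-type cyclins, *Cdk4* and *E2f2* are blue in every p27-/- library and the other genes red, deepest for *Mki67*, *Cenpf* and *Top2a* in p27-/- replicate 2.

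The 6 lists of cell cycle and DNA repair genes without the D cyclins were chosen with earlier results of these data known, so shares over them are descriptive. Of their 131 tested genes, 59 (45.0%) were called higher against 9.07% of all genes, and 2 were called lower. After the GC correction 37 were called higher, 28.2% against 4.28% of all genes, and 35 of them were also called as deposited. Without WT replicate 1 the count was 12, and the median moved from 0.52 to 0.46. Among the Xist-high libraries alone, the 2 WT against p27-/- replicate 3, the median was 0.60. At 2 months 0 of the 131 genes were called, against 0.23% of all genes, and the median of the 131 was 0.27. An unadjusted p under 0.05 (limma) was found at that age for 42 of the 131, all 42 higher in p27-/-, and for 1865 of all genes, 786 of them higher. The genotype by age interaction called 0 of the 131 and 0 of all genes (limma), although 27 of the 131 and 2675 of all genes had an unadjusted p under 0.05, and 22 of the 27 had the larger rise at 7 months. For *Mki67* the rise was 1.17 at 2 months and 3.52 at 7 months (interaction adjusted p = 0.0658).

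The melanotroph genes themselves gave a mixed picture. *Pomc* was 16.25 and 16.12 in the WT libraries and 15.45, 15.63 and 16.11 in the p27-/- libraries, p27-/- replicate 3 lay just under WT replicate 2, and the difference did not pass (log2 fold change -0.46, SE 0.32, limma adjusted p = 0.322, and 0.01 after the GC correction). The lineage factors *Pax7* and *Tbx19*, which set the melanotroph fate and *Pomc* transcription, had log2 fold changes of -0.40 and -0.16 (limma adjusted p = 0.064 and 0.547). *Pitx1*, a homeobox factor of the whole pituitary, fell 2.08-fold (adjusted p = 0.0259), and it was not called after the correction. Of 11 lineage factors tested, 1 was called higher and 2 lower, beside 9.07% and 9.28% of all genes. The highest log2 fold change of the list was 1.04, and of its calls only the rise remained after the correction.

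Of 12 genes of POMC processing, 3 were called higher and 2 lower (median 0.051, -0.13 under the rescaling, and 0.014 after the GC correction, with the calls of *Cpe* and *Pcsk1n* remaining). *Cpe*, carboxypeptidase E, which trims the cleaved peptides, was 11.31 and 11.23 in the WT libraries and 12.53, 11.63 and 11.97 in the p27-/- libraries (log2 fold change 0.77, SE 0.22, limma adjusted p = 0.029). *Scg5*, the chaperone of the convertase PC2, rose 1.46-fold (limma adjusted p = 0.0384). *Pcsk1n*, proSAAS, the inhibitor of the convertase PC1/3, fell from 8.85 and 8.16 to between 7.09 and 7.60 (log2 fold change -1.16, SE 0.24, limma adjusted p = 0.00647), and *Furin* fell 1.59-fold (adjusted p = 0.0257). The convertase genes *Pcsk2* and *Pcsk1* did not pass, at 0.42 and 0.40 (adjusted p = 0.14 and 0.209).

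Secretory granule and exocytosis genes were called in both directions. Of 23 tested, 4 were called higher and 5 lower (median 0.13, and -0.054 under the rescaling). *Snap25*, a SNARE of the plasma membrane, rose 1.72-fold and the calcium sensor gene *Syt1* 1.57-fold (adjusted p = 0.0201 and 0.0277), with GC contents of 39.2% and 43.1%. *Syt7*, *Chga* (chromogranin A) and *Ptprn* fell 1.96-, 1.64- and 1.52-fold (adjusted p = 0.00318, 0.0398 and 0.0234), with GC contents of 55.6%, 58.4% and 59.5%. Of these 9 calls, 2 falls remained after the GC correction, that of *Syt7* among them (adjusted p = 0.0342).

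Of 19 receptor and channel genes, 5 were called higher and 2 lower (median 0.083, -0.099 under the rescaling, and -0.068 without WT replicate 1). *Gabra2*, a subunit of the GABA-A receptor through which the lobe is innervated, was 8.72 and 9.52 in the WT libraries and 10.07, 10.71 and 11.21 in the p27-/- libraries, without overlap (log2 fold change 1.54, SE 0.32, limma adjusted p = 0.0066), and it was the 1 rise of the 5 that was also called after the GC correction (1.17, adjusted p = 0.0311). *Drd2*, the dopamine receptor that restrains melanotrophs, did not pass as deposited (log2 fold change 0.49, SE 0.19, limma adjusted p = 0.0845) and passed after the correction (0.81, adjusted p = 0.0222). In cAMP and G protein signaling, 4 of 28 genes were called higher and 8 lower (median -0.25, and -0.16 after the correction). *Crtc1*, a coactivator of CREB, was 9.51 and 9.13 in the WT libraries and 8.25, 8.27 and 8.16 in the p27-/- libraries (log2 fold change -1.09, SE 0.16, limma adjusted p = 0.00128). *Gnas*, the stimulatory G protein, fell 1.98-fold and *Prkar1a*, the regulatory subunit of protein kinase A, rose 1.63-fold (limma adjusted p = 0.0317 and 0.0315). *Crtc1*, *Gnao1* and *Gnaq* were the 3 calls that remained after the correction.

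**Figure D4:**
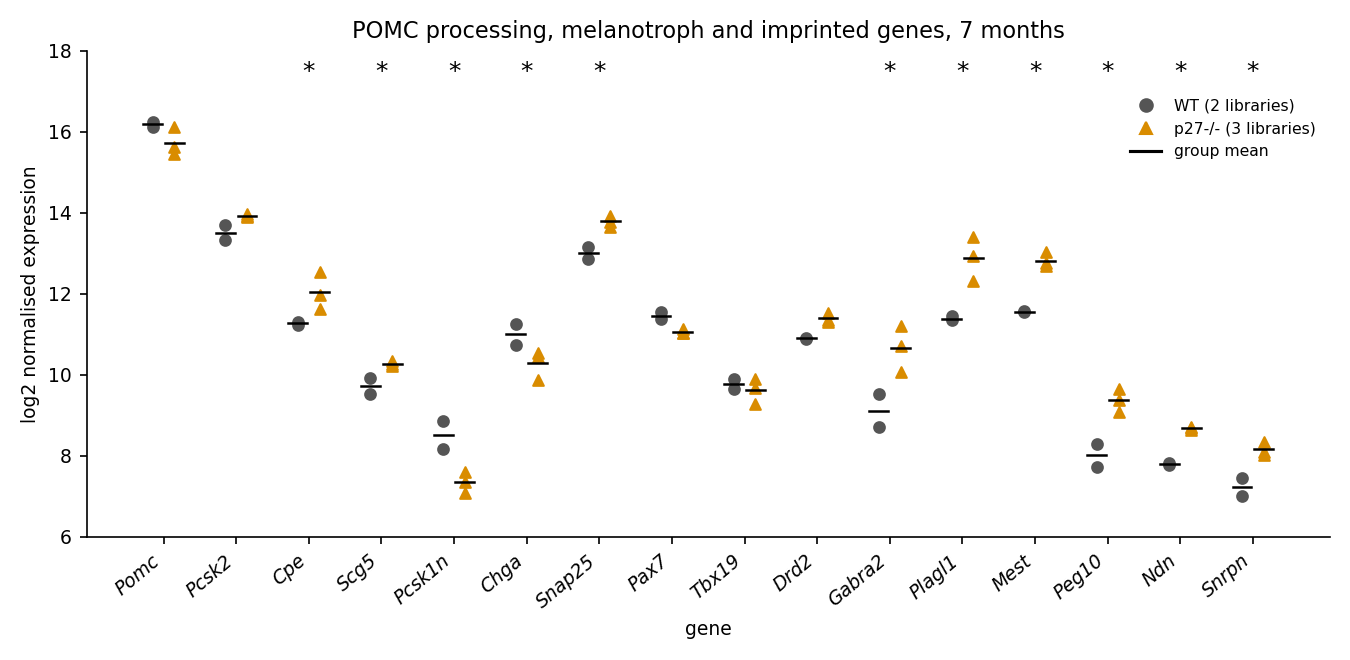
Log2 normalised expression (y axis) of genes of POMC processing, secretion and melanotroph identity and of imprinted genes (x axis) in the 2 WT libraries (circles) and the 3 p27-/- libraries (triangles) of 7 months, with bars at the group means and asterisks over called genes. *Pomc*, *Pcsk2*, *Pax7*, *Tbx19* and *Drd2* carry no asterisk. The 5 imprinted genes were taken from those called higher. Of all 1501 genes called higher, 1494 had groups that did not overlap.

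Of 14 stem cell genes tested, 0 were called higher and 2 lower, beside 9.07% and 9.28% of all genes. The median was -0.22, and -0.061 after the GC correction. Both falls were still called then, beside 3.21% of all genes called lower. Without WT replicate 1 the median turned to 0.063 and 0 were called. *Sox2* was 6.96 and 6.58 in the WT libraries and 7.11, 6.68 and 7.03 in the p27-/- libraries, with the groups interleaved (log2 fold change 0.17, SE 0.20, limma adjusted p = 0.601). *Sox9*, a factor of the stem cell layer, was 8.17 and 7.41 in the WT libraries and 6.88, 7.01 and 6.63 in the p27-/- libraries, all p27-/- values being lower (log2 fold change -0.95, SE 0.21, limma adjusted p = 0.00972, and -0.89 after the correction). *Cyp2f2*, a cytochrome P450, fell from 10.84 and 10.47 to between 9.39 and 9.65 (log2 fold change -1.13, SE 0.18, limma adjusted p = 0.00188).

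Of 29 Notch pathway genes, 0 were called higher and 7 lower (median -0.23, and -0.12 after the GC correction, with 2 still called). *Dtx1*, a target and modulator of Notch, was 8.20 and 7.77 in the WT libraries and 6.67, 6.79 and 6.80 in the p27-/- libraries (log2 fold change -1.23, SE 0.18, limma adjusted p = 0.00132), and the receptor genes *Notch1* and *Notch2* fell 1.81- and 1.69-fold (limma adjusted p = 0.0145 and 0.00671). *Hes1*, a direct Notch target, did not pass (-0.33, adjusted p = 0.322). Of 29 Wnt pathway genes, 2 were called higher and 7 lower (median -0.40, and -0.13 after the correction). *Sfrp1*, a secreted Wnt antagonist, was 5.63 and 6.58 in the WT libraries and 7.44, 8.004 and 7.65 in the p27-/- libraries (log2 fold change 1.59, SE 0.33, limma adjusted p = 0.00619), and *Fzd1*, a receptor, rose 1.75-fold (adjusted p = 0.0307). *Tcf7l2*, a transcription factor of the pathway, and *Dkk3* fell 2.28- and 2.09-fold (adjusted p = 0.00177 and 0.00256). These 4 genes and *Fzd6*, a fall of 1.47-fold, were the 5 called both before and after the correction. *Axin2*, a feedback target of β-catenin, fell 1.78-fold as deposited (adjusted p = 0.00371) and did not pass after it (-0.46, adjusted p = 0.0674).

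In the Hippo pathway 1 of 18 genes, *Wwtr1* (TAZ), was called higher and 2, *Nf2* and *Amotl1*, lower (median -0.11), and the fall of *Nf2* (log2 fold change -0.75, SE 0.14, limma adjusted p = 0.00442) remained after the GC correction. Of 31 growth factor and receptor genes, 2 were called higher and 3 lower (median -0.051). Over all tested genes 9.07% were called higher and 9.28% lower, beside which the counts of this paragraph stand. *Fgfr1*, a fibroblast growth factor receptor, was 8.52 and 8.10 in the WT libraries and 6.99, 6.88 and 6.16 in the p27-/- libraries, with p27-/- replicate 3 the lowest (log2 fold change -1.63, SE 0.25, limma adjusted p = 0.00162). Among 25 immediate early and MAPK response genes, 1 was called higher and 3 lower (median -0.26, which turned to 0.097 after the GC correction). *Nr4a2*, an orphan nuclear receptor, rose from 9.19 and 9.60 to between 10.55 and 10.89 (log2 fold change 1.29, SE 0.33, limma adjusted p = 0.0178). *Fosb*, *Jun* and *Junb* fell 2.97-, 2.06- and 1.97-fold (limma adjusted p = 0.0306, 0.013 and 0.0432). WT replicate 1 was the highest library for each of these 3, and without it their adjusted p-values were 0.433, 0.239 and 0.536.

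Of 29 adhesion genes, 1 was called higher and 7 lower (median -0.041, and -0.18 after the GC correction, with 3 of the falls still called). *Cdh1*, E-cadherin of epithelial junctions, was 8.14 and 7.77 in the WT libraries and 6.33, 7.08 and 6.30 in the p27-/- libraries, without overlap (log2 fold change -1.38, SE 0.23, limma adjusted p = 0.00216, and -1.24 after the correction). *Itga6*, a laminin-binding integrin, and *Plat*, tissue plasminogen activator, fell 2.13- and 2.38-fold (limma adjusted p = 0.0161 and 0.00166). Of 30 matrix genes, 1 was called higher and 7 lower (median -0.22, and -0.083 after the correction). *Lama5*, a basement membrane laminin, was 7.88 and 7.29 in the WT libraries and 6.36, 6.35 and 5.62 in the p27-/- libraries (log2 fold change -1.48, SE 0.27, limma adjusted p = 0.00398), and it was the 1 fall of the 7 still called after the correction (adjusted p = 0.0333). *Hspg2* (perlecan), *Lamb2* and *Nid2*, also of basement membranes, fell 2.1-, 2.04- and 1.96-fold (adjusted p = 0.00506, 0.00685 and 0.0111), and *Col3a1*, a fibrillar collagen, rose 2.02-fold (adjusted p = 0.0312). Of 37 genes of actin and the small GTPases that remodel it, 5 were called higher and 12 lower (median -0.26, and -0.13 after the correction). The filamin gene *Flna* and *Pxn*, which encodes paxillin of focal adhesions, fell 2.14- and 2.21-fold (adjusted p = 0.00617 and 0.00415). The kinase gene *Rock2* and the GTPase gene *Rac1* rose 2.2- and 1.53-fold (adjusted p = 0.00516 and 0.0117), and both were called after the correction.

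All 13 mitochondrially encoded protein genes were called higher, with log2 fold changes from 1.60 to 3.54 (median 2.11). Their median GC content was 37.1%, and after the GC correction the median was 1.60 and 12 of the 13 were still called. Without WT replicate 1 the median was 1.86 and 6 were called. *mt-Nd2*, of respiratory complex I, was 12.28 and 12.90 in the WT libraries and 14.98, 15.15 and 14.80 in the p27-/- libraries (log2 fold change 2.38, SE 0.28, limma adjusted p = 0.000384), and *mt-Co1*, of complex IV, was 14.37 and 15.50 in the WT libraries and 16.18, 16.35 and 17.07 in the p27-/- libraries (log2 fold change 1.60, SE 0.38, limma adjusted p = 0.0118). WT replicate 1 was lower than WT replicate 2 for both. *mt-Co3* had the largest difference and the largest spread (log2 fold change 3.54, SE 1.09, limma adjusted p = 0.0361), its WT libraries being 6.49 and 9.30. At 2 months the median of the 13 genes was -0.078. Of 38 nuclear genes of oxidative phosphorylation, 0 were called higher and 1 lower, *Sdhc* (median -0.019, which turned to 0.14 after the GC correction and to 0.043 without WT replicate 1). *Lars2*, the mitochondrial leucyl-tRNA synthetase, was 13.42 and 12.85 in the WT libraries and 10.05, 10.72 and 11.32 in the p27-/- libraries, a fall of 5.44-fold (log2 fold change -2.44, SE 0.28, limma adjusted p = 0.000367). It was the 1 gene called lower of 21 tested genes of mitochondrial gene expression, of which 1 was called higher (median -0.035). With 1 value per gene, the part of *Lars2* that its reads came from cannot be seen.

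Of 34 ribosomal protein genes, 7 were called higher and 0 lower (median 0.22, 0.042 under the rescaling, and 0.37 after the GC correction, with 3 of the 7 still called). *Rps23* and *Rpl15* rose 2.07- and 2.03-fold (limma adjusted p = 0.0149 and 0.0246). Ribosomal protein genes have many processed copies, among which the counting can split reads. Of 24 sterol and fatty acid synthesis genes, 3 were called higher and 4 lower. After the GC correction 1 of the 7 calls remained. Of 30 HIF-1 targets and glycolytic genes, 4 were called higher and 3 lower, the falls being *Hk1*, *Eno1* and the glucose transporter gene *Slc2a1* (1.86-, 1.75- and 1.49-fold, adjusted p = 0.0064, 0.016 and 0.0482). Of these 7 calls only the rise of the hexokinase gene *Hk2* remained after the GC correction (list median 0.067, and 0.10 after it). *Vegfa* did not pass (0.28, adjusted p = 0.569). In the unfolded protein response *Hsp90b1* rose and *Hyou1* fell, 1.59- and 2.08-fold, of 22 genes (adjusted p = 0.0334 and 0.00409), and the fall of *Hyou1* remained after the GC correction (list median 0.040, and 0.062 after it).

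Of 18 tested genes on a list of imprinted genes, expressed from 1 parental copy and known for growth control, 6 were called higher and 0 lower. The list, chosen with earlier results of these data known, left out *Gnas*. That gene is also imprinted and was called lower as given above, though not after the GC correction. Under quantile normalisation of the libraries *Meg3* and *Peg3*, at 0.03 and 0.49 as deposited, were called lower (-0.93 and -0.48). The median was 0.24 (0.057 under the rescaling, 0.39 after the GC correction and 0.16 without WT replicate 1, when *Peg10* alone was called). *Plagl1*, a zinc finger factor of the imprinted gene network, was 11.35 and 11.44 in the WT libraries and 13.40, 12.93 and 12.31 in the p27-/- libraries, without overlap (log2 fold change 1.49, SE 0.30, limma adjusted p = 0.00562). *Mest* was 11.57 and 11.56 in the WT libraries and 12.77, 12.68 and 13.03 in the p27-/- libraries, with both groups tight (log2 fold change 1.26, SE 0.23, limma adjusted p = 0.00402). *Peg10*, derived from a retrotransposon, was 8.30 and 7.73 in the WT libraries and 9.64, 9.09 and 9.38 in the p27-/- libraries (log2 fold change 1.36, SE 0.20, limma adjusted p = 0.00134). *Ndn* and *Snrpn*, which lie in the cluster of Prader-Willi syndrome in man, rose 1.86- and 1.89-fold (limma adjusted p = 0.0282 and 0.0146). These 5 genes were all called after the GC correction too, and the sixth, *Zim1*, was not (0.45, adjusted p = 0.12). At 2 months the median of the list was -0.29, and the log2 fold changes of *Plagl1*, *Mest* and *Peg10* were -0.36, -0.32 and -0.27, with interaction adjusted p-values above the threshold at 0.111, 0.0952 and 0.0658.

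Chromatin regulators divided evenly, 7 called higher and 7 lower of 29 (median -0.010). *Hdac1*, a class I histone deacetylase, was 9.45 and 8.82 in the WT libraries and 7.998, 8.01 and 7.995 in the p27-/- libraries (log2 fold change -1.14, SE 0.24, limma adjusted p = 0.00702). *Hdac5* fell 2.19-fold, *Ezh2*, the methyltransferase of Polycomb complex PRC2, rose 1.69-fold, and *Hmgb2*, a chromatin protein of dividing cells, rose 2.13-fold (limma adjusted p = 0.00352, 0.0125 and 0.00578). The falls of *Hdac1* and *Hdac5* were the 2 calls of the 14 that remained after the GC correction. Of 14 p53 target genes, 3 were called higher and 0 lower (median 0.11, -0.076 under the rescaling, and 0.077 after the GC correction). *Ccng1*, cyclin G1, was 9.55 and 9.82 in the WT libraries and 10.53, 11.19 and 10.50 in the p27-/- libraries (log2 fold change 1.05, SE 0.21, limma adjusted p = 0.0056), and it was the 1 call of the 3 that remained after the correction. In the interferon response 2 of 19 genes were called lower, *H2-K1* and *Ifitm3*, and 0 higher (median -0.22), beside 9.28% of all genes called lower. Neither was called after the correction.

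**Figure D5:**
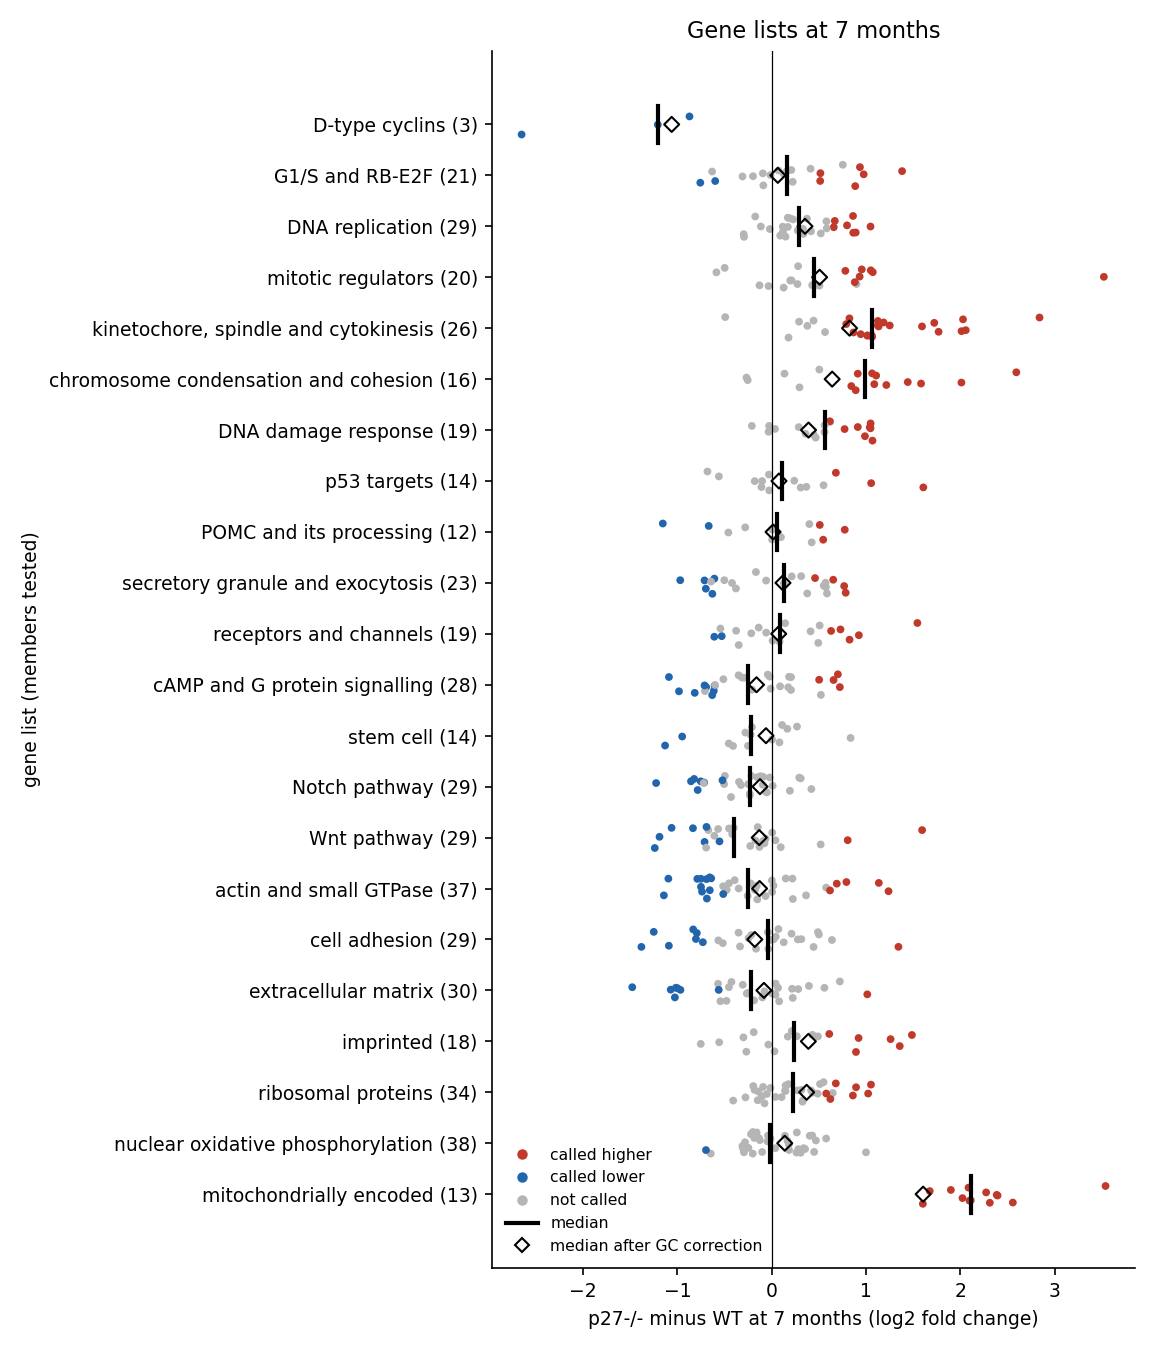
Log2 fold change between p27-/- and WT lobes of 7 months (x axis) of the tested members of 22 gene lists (y axis, number tested in brackets), with called members in color, black ticks at the medians as deposited and open diamonds at the medians after the GC correction. The mitochondrially encoded, kinetochore and condensation lists lie farthest to the right, and the D-type cyclins are the list farthest to the left. Under the rescaling the medians of the G1/S, p53, POMC, secretory and receptor lists turn negative.

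The genes with the largest changes across the whole table, by the size rule given with the methods, numbered 15 in each direction. Beside the cell cycle genes, rises included *Crisp1*, a cysteine-rich secretory protein known from the epididymis, which was 5.57 and 6.49 in the WT libraries and 8.38, 9.13 and 8.12 in the p27-/- libraries (log2 fold change 2.52, SE 0.31, limma adjusted p = 0.000496). *Muc6*, a secreted mucin, was 6.08 and 5.78 in the WT libraries and 8.31, 7.14 and 7.94 in the p27-/- libraries (log2 fold change 1.87, SE 0.26, limma adjusted p = 0.00115). *Lpl*, lipoprotein lipase, was 8.86 and 9.50 in the WT libraries and 10.79, 11.12 and 11.03 in the p27-/- libraries, without overlap (log2 fold change 1.80, SE 0.21, limma adjusted p = 0.000367). *Mybl1*, a factor of the MYB family, *Sema5a*, a semaphorin, and *Dram2*, an autophagy regulator, rose 3.44-, 3.22- and 3.14-fold (limma adjusted p = 0.000438, 0.00642 and 0.00157). *Tent5a*, a poly(A) polymerase, rose 3.13-fold, and *Luzp2* rose 3.37-fold with p27-/- replicate 3 close to WT replicate 2 (adjusted p = 0.00256 and 0.0193). *Mir703*, annotated as a microRNA gene, rose 3.27-fold (adjusted p = 0.00544), and the counting cannot tell its reads from those of an overlapping transcript. Of the 15 rises, 13 were also called after the GC correction, all except *Luzp2* and *Mir703*, and 9 without WT replicate 1.

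Of the 15 largest falls, *Ccnd2*, *Lars2* and *Fgfr1* are given above. *Cx3cl1*, the chemokine fractalkine, was 9.36 and 9.15 in the WT libraries and 7.47, 7.89 and 7.82 in the p27-/- libraries (log2 fold change -1.53, SE 0.17, limma adjusted p = 0.000257). *Mmp15*, a membrane-bound metalloproteinase, was 8.67 and 8.04 in the WT libraries and 6.58, 6.76 and 6.95 in the p27-/- libraries (log2 fold change -1.59, SE 0.19, limma adjusted p = 0.000443). *Med24*, a Mediator subunit, *Gas6*, the ligand of the TAM receptors, and *C3*, complement component 3, fell 3.24-, 2.99- and 3.13-fold (limma adjusted p = 0.000653, 0.00133 and 0.0109). The axon guidance gene *Ntn1* and *Ache*, acetylcholinesterase, fell 2.88- and 2.94-fold, and *Psd*, *Igsf9b* and *Gigyf1* fell 2.94-, 2.89- and 2.87-fold (adjusted p = 0.00115, 0.0066, 0.00268, 0.00207 and 0.0087). *Srp54c* fell 4.77-fold (adjusted p = 0.00661), a value that is uncertain because near-identical copies of *Srp54* can share its reads. The 15 falls were all called after the GC correction, and 7 without WT replicate 1. With the GC correction and *Xist* as a covariate, 11 of the 15 rises and 10 of the 15 falls were called. Some larger values belonged to IDs without a name. Of these, ENSMUSG00000095547 and the predicted gene *Gm10801* rose 32.6- and 28.3-fold and ENSMUSG00000105361 and ENSMUSG00000106106 fell 28.4- and 8.47-fold (adjusted p = 0.000163, 0.000224, 0.00174 and 0.00283).

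Markers of other cells that a dissected lobe can hold were measured beside these results, as a summed level, the log2 of the sum of back-transformed values over the tested markers. For 9 anterior lobe endocrine markers the WT libraries had 14.32 and 13.31 and the p27-/- libraries 11.65, 12.85 and 14.93, so the groups overlapped and the 3 p27-/- libraries spread over more than 3 log2 units. *Prl*, prolactin, was 13.97 and 12.97 in the WT libraries and 10.76, 12.47 and 14.85 in the p27-/- libraries, and *Gh*, growth hormone, was 11.56 and 10.64 in the WT libraries and 9.70, 8.89 and 9.99 in the p27-/- libraries, the 1 of these markers that was called (log2 fold change -1.58, SE 0.33, limma adjusted p = 0.00702). Macrophage markers (10 tested) summed to 9.02 and 9.17 in WT and 8.69 to 9.98 in p27-/-, endothelial markers (11 tested) to 8.64 and 8.12 against 8.14 to 8.65, and posterior lobe markers (5 tested) to 9.39 and 9.74 against 9.06 to 9.69. None of these 26 genes was called. Fibroblast and pericyte markers summed to 10.42 and 10.18 against 10.64 to 10.67, with *Rgs5* and *Kcnj8* called higher of 9. Red blood cell markers summed to 7.30 and 8.91 against 6.91 to 8.69 with 0 of 3 called, and lymphocyte markers to 6.40 and 6.32 against 6.14 to 6.68 with *Cd8a* called lower of 4. The 5 melanotroph markers summed to 16.53 and 16.45 in WT and 16.00 to 16.49 in p27-/-, above every other marker list in every library. The deposited scale has no exact 0, so a marker without reads cannot be recognised on it, and the lowest value of any tested marker in these libraries was 2.89. The part of other cells in the results was not tested.

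Of 518 genes on the X chromosome 19.3% were called higher and 4.83% lower, and of 13178 autosomal genes 8.50% and 10.8%, a difference that was not tested. Their median log2 fold change was 0.24, against -0.042 on autosomes. *Kdm5c*, an X-linked histone demethylase that escapes X inactivation, was 8.98 and 8.83 in the WT libraries and 8.22, 8.02 and 7.99 in the p27-/- libraries, lower also in the *Xist*-high p27-/- replicate 3 (log2 fold change -0.83, SE 0.17, limma adjusted p = 0.00642).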

How the data were processed

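RNA-seq was performed on intermediate lobes of WT and p27-/- mice. The submitters' processing notes name STAR 2.5.2a, RSEM 1.3.30 and DESeq2 1.18.1 on GRCm38 with Ensembl annotation. The table deposited by the authors holds 1 normalised log2 expression value per gene ID and library for 39021 IDs. The transform is not given in the sources used here and the values are not counts, so read depth is unknown and no counting interval could be given. Counting did not use strand, so overlapping and antisense genes cannot be told apart, and paralogs can share reads.

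A gene was tested if its back-transformed mean over all 10 libraries reached 10. Testing was done with limma 3.58.1 in R 4.3.3, in 1 linear model with a mean for each genotype and age (6 residual degrees of freedom, 8.7 prior degrees of freedom, empirical Bayes moderation with a trend). P-values were adjusted by Benjamini-Hochberg over all tested genes, and genes under 0.05 were called. P-values measure the spread between these libraries. The genotype by age interaction came from the same model. Fold changes given as such are 2 raised to the log2 difference.

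Exonic GC content came from NCBIM37 with GENCODE M1 by gene ID and covered 14172 of 16556 tested genes (85.6%). The GC correction subtracted from each library a loess curve (span 0.3) of its deviation from the gene mean on GC content. Names were taken from an ID-to-symbol list and RefSeq synonyms, coordinates and promoters from RefSeq GRCm38.p6 by symbol.

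Genes were named by 2 rules. The first took the 15 largest rises and falls among called genes with a symbol, an average back-transformed value of 100 or more, a place outside chromosomes X, Y and MT and no overlap between groups, and 2 unnamed or predicted IDs each way. The second took members of 42 gene lists, of which some are not reported here. The members and lists were chosen with earlier results of these data known. Alternatives changed the filter, pseudocount, scaling, weights, covariates, GC, replicate block and libraries. The scripts were tested on simulated data. No columns were left out (0 without a sample).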

Additional observations from a re-analysis of the deposited data

How the results depend on the processing

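Depth cannot be read from the deposited log2 values, and groups of 2 and 3 libraries limit the precision. The count of called genes (3037, 1501 higher and 1536 lower) moved by over 1.5 times, in all or in 1 direction, under the following settings. With no filter on low values it was 1574 (801 higher, 773 lower). With *Xist* as a covariate it was 1234 (587 and 647), among *Xist*-high libraries 754 (374 and 380), after the GC correction 1061 (606 and 455), and with both GC and *Xist* 439 (235 and 204). Fitted on the 5 libraries of 7 months alone, 965 genes were higher. Rescaled without mitochondrially encoded genes, 843 were higher and 2927 lower. Leaving out each library in turn gave 142 to 2789 genes (86 to 1436 higher, 56 to 1353 lower), with 142 (86 and 56) without WT replicate 1 and 1865 (902 and 963) without p27-/- replicate 2. The cause of these moves was not tested.

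The genotype by age interaction called 0 genes as reported, 6 when rescaled, 39 with library quality weights, 1 among *Xist*-high libraries and 0 to 47 on leaving out a library. *Cdkn1b* passed the threshold when rescaled (-0.51, limma adjusted p = 0.0301), after the GC correction (-0.62, adjusted p = 0.0257) and after it with the replicate block (-0.55, adjusted p = 0.0485), and lay between -0.42 and -0.24 on leaving out a library. Over its other alternatives its adjusted p was 0.0739 to 0.428.

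WT and p27-/- libraries share replicate numbers in the labels. Deviations of same-numbered libraries from their group means correlated at 0.026 and 0.12 across genes, and the libraries share only a number. The replicate block gave 2459 genes (1237 higher, 1222 lower), and with the GC correction 795 (479 and 316).

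Of 31 genes named by size with a GC content, 29 kept their call after the GC correction, and 18 of 34 kept it without WT replicate 1. With the GC correction and *Xist* as a covariate, 22 of the 31 kept their call. Among values called as reported or under the alternative, those that changed sign were *Rb1* (-0.00073) and *Diaph2* (-0.073) with the GC correction and *Xist*, *Atp6ap2* (-0.044) with the GC correction and replicate block, and *Meg3* (-0.93) and *Peg3* (-0.48) under quantile normalisation.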

Other observations

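Some called genes of the lists were not described above. Among growth factor and receptor genes, *Bmpr1a*, a BMP receptor, was 10.32 and 10.58 in the WT libraries and 11.03, 11.41 and 11.10 in the p27-/- libraries (log2 fold change 0.73, SE 0.18, limma adjusted p = 0.0135), and *Igfbp2*, which binds insulin-like growth factors, rose 1.82-fold (adjusted p = 0.0482). The TGF-β ligand gene *Tgfb2* and the receptor gene *Tgfbr2* fell 1.53- and 1.6-fold (limma adjusted p = 0.0468 and 0.0365). *Hif1a*, the oxygen-regulated subunit of HIF-1, rose 1.46-fold, its target *Bnip3l* 1.72-fold and *Hk2*, a hexokinase, 1.58-fold (adjusted p = 0.0315, 0.0297 and 0.0389). *Fasn*, fatty acid synthase, and *Srebf2*, the regulator of sterol synthesis, fell 1.75- and 1.5-fold, while *Idi1* and *Insig1*, of the same list, rose 1.6- and 1.45-fold (adjusted p = 0.00642, 0.0176, 0.0435 and 0.0371). Of these 11 genes, *Igfbp2* and *Hk2* were also called after the GC correction (adjusted p = 0.0167 and 0.0191).

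Genes without a symbol, or with a predicted one, numbered 330 of the 1501 called higher, 106 of the 1536 called lower and 3542 of the 16556 tested.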
